A study of Mus musculus with 20 samples.

Results

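The replication-dependent histone genes, named Hist1, Hist2, Hist3 or Hist4 for the gene cluster they lie in, were followed in RNA of the aortic endothelium of mice with chronic kidney injury. Genes whose symbol begins with 1 of those 4 names numbered 63 in the deposited table of FPKM (fragments per kilobase of gene, and per M or mega of assigned reads), and the 54 that also appear in the deposited variance-stabilized table, which holds 20442 genes in all, are described here. The 9 others had between 1 and 112 reads in total over the 20 libraries and are not described further.

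These genes code for the histones that package newly made DNA, apart from Hist3h2bb-ps, a pseudogene by its symbol. Nucleosomes are built from H2A, H2B, H3 and H4, and the linker histone H1 binds the DNA between them. Their transcription rises when a cell enters S phase, and their mRNAs end in a conserved stem-loop, bound by the stem-loop binding protein Slbp, in place of a poly(A) tail. Some of them are known to make a polyadenylated mRNA as well in cells that have left the cycle. Mki67, which codes for the Ki-67 antigen of cycling cells, and Top2a, the topoisomerase that untangles DNA before cell division, are widely used markers of proliferation.

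All mice were female, carried the genotype Apoe-/- on the strain B6.129P2-Apoetm1Unc/J, ate regular chow and had 5/6 nephrectomy at 9 weeks of age. A single retro-orbital injection followed 7 weeks after surgery, and tissue was taken 1 week after that. Each of 5 groups had 4 mice. They received HDL + LNA92a + LNA489 (called dual here), HDL + LNA489, HDL + LNA92a, HDL or Saline, and every HDL dose was 4 mg. The inhibitors LNA92a and LNA489, made of locked nucleic acid, are directed per the study title at miR-92a-3p and miR-489-3p. Each was given at 20 mg/kg, which makes 40 mg/kg of inhibitor in the dual group. No group used here had an inhibitor without HDL, a control oligonucleotide, or intact kidneys. Replicates are separate mice by the labels. A library is given here by its group and the number of its mouse (HDL 11), and the short group names LNA92a and LNA489 always include HDL.

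The libraries held 11.6 to 21.4 M reads assigned to genes, with a median of 15.1 M. The 8 endothelial markers checked were all present, but their summed level ran from 53.1 FPKM (HDL 4) to 1877 FPKM (HDL 23), so the share of endothelial RNA differed widely between libraries. Markers of other tissues differed widely too. The 5 adrenal cortex markers summed to 1885 FPKM in Saline 2 and 1582 FPKM in dual 10, against at most 22.8 FPKM elsewhere. Sums ran from 595 to 10599 FPKM for 8 macrophage markers, 49.986 to 2506 FPKM for 5 adipocyte markers and 98.3 to 2441 FPKM for 5 fibroblast markers. HDL 11 stood apart in B cell markers. Its 6 B cell markers summed to 662 FPKM, against 91.3 FPKM in the next highest library, and its 5 germinal centre B cell markers to 54.4 FPKM, against 15.8 FPKM. The medians of the main comparisons and the counts called among all 54 genes are given below with and without HDL 11. Other results are over all 20 libraries unless stated otherwise. In such bulk RNA, fewer cells of a type and less RNA per cell cannot be told apart.

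Of the 54 genes, 46 lie in the Hist1 cluster on chromosome 13 and held 97.1% of the summed mean FPKM, and the other 8 lie on chromosomes 3, 6 and 11. The H4 class had 13 genes and 39.6% of the summed FPKM, H1 had 5 genes and 25.5%, H2B had 15 genes and 21.6%, H3 had 10 genes and 7.87%, and H2A had 11 genes and 5.43%. Hist3h2bb-ps is counted with the H2B genes throughout. Many of the coding sequences are near copies of each other. In 22 genes at least 50% of all 50-base windows of the annotated transcripts also occurred in another gene, and in 47 genes at least 10% did. Only Hist2h2be, Hist1h1b and Hist1h1a had none. How reads with several matches and the strand were counted was not given in the sources used here, so levels of single members with shared sequence are uncertain, as are those of the 14 genes whose exons overlap another gene.

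The stem-loop was looked up in the transcripts annotated in GENCODE M21 (build GRCm38). It was found in 39 of the 54 genes, against 1.78% of all 55450 annotated genes. Of the 15 genes without it, 12 have no more than 2 annotated bases after the stop codon, so their annotation ends before a stem-loop could stand. The commonest core, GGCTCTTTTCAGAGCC, is shared by 20 genes, and 7 genes carry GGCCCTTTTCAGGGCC. The sites of 7 genes that the results below turn on are shown with the core of 16 bases in capitals and 6 bases on either side, 5′ to 3′ on the transcript strand.
Hist1h3b (chr13:23752814-23752841, plus strand): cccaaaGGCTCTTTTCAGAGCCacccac
Hist1h2bk (chr13:22036294-22036321, plus strand): accaaaGGCTCTTTTAAGAGCCactaaa
Hist1h1d (chr13:23555781-23555808, plus strand): tcaaacGGCTCTTTTCAGAGCCacccac
Hist1h1c (chr13:23739506-23739533, plus strand): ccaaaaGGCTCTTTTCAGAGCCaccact
Hist1h1e (chr13:23621776-23621803, minus strand): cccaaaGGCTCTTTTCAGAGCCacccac
Hist1h4c (chr13:23698083-23698110, minus strand): acaaaaGGCCCTTTTCAGGGCCacccac
Hist1h4f (chr13:23551285-23551312, minus strand): ctcaaaGGCCCTTTTCAGGGCCacccac
The first 3 and the last of these genes were called as correlated with Mki67 over the 20 libraries and the other 3 were not, as described below. Hist1h3b, which was called, and Hist1h1e, which was not, have the same 28 bases.

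Promoter windows of 300 bases (250 before the start and 50 after it) were available from RefSeq (GRCm38.p6) for 48 of the 54 genes. They were searched on both strands for the CCAAT box, the TATA box as TATAAA, the octamer as ATTTGCAT and the H1 element AAACACA, all known from histone promoters. None of the 4 contains another. Windows of neighbouring genes can overlap, as those of Hist1h2bk and Hist1h2ah (chr13:22035594-22035893) do, so 1 match can count for 2 genes. The TATAAA of the Hist1h2bk window, for instance, counts for Hist1h2ah as well. CCAAT was present in 39 of the 48 windows, against 37.4% of all 32851 promoters in the table. By class it stood in all 36 windows of H1, H2A, H2B and H3 genes and in 3 of 12 windows of H4 genes. TATAAA occurred in 30 windows, against 13.6% of all promoters. The octamer occurred in 10 windows, against 1.74% of all promoters. Of these 10, 6 were of H2A genes and 4 of H2B genes. The H2B gene Hist1h2be has 2 listed windows, of which only the first was counted, and its second window holds the octamer. AAACACA occurred in 6 windows, against 7.18% of all promoters, and 4 of these belonged to the 5 H1 genes. A match describes letters in the window and is not evidence of binding. The windows of an H2B, an H1 and an H4 gene are shown to let the 3 patterns be compared, on the gene's own strand with matches on either strand in capitals.
Hist1h2bk (chr13:22035571-22035870, plus strand): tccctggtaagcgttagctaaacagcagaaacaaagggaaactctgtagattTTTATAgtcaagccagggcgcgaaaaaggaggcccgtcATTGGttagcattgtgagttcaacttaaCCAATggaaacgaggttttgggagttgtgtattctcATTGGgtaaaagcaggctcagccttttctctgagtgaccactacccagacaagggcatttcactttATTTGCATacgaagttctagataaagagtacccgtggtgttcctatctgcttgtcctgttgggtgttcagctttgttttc
Hist1h1c (chr13:23738557-23738856, plus strand): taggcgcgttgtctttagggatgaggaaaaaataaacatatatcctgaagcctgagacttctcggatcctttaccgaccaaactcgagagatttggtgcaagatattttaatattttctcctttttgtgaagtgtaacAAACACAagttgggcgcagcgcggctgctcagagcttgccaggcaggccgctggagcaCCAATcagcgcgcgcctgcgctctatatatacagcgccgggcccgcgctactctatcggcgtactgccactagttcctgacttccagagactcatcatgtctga
Hist1h4f (chr13:23551619-23551918, minus strand): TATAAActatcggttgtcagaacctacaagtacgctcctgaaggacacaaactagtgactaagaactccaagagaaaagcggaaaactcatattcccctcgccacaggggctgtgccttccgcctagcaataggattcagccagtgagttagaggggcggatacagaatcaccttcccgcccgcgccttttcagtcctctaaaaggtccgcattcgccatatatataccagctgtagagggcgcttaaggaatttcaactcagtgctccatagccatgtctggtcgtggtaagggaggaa
The H2B window holds CCAAT on both strands, the octamer and TATAAA on the opposite strand, the H1 window holds AAACACA upstream of CCAAT, and the H4 window holds only TATAAA, at its far end.

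The summed level of the 54 genes differed widely between mice of the same group. The 4 dual libraries (animals 8, 10, 15 and 21) had summed levels of 599, 1129, 990.2 and 1115 FPKM. The 4 LNA489 libraries (7, 13, 14 and 19) had 447, 1212, 1066 and 1157 FPKM, and the 4 LNA92a libraries (5, 12, 17 and 18) had 780.0, 763, 449.5 and 515 FPKM. The 4 HDL libraries (3, 4, 11 and 23) had 658, 605, 2218 and 605 FPKM, against 1476, 503, 1666 and 952 FPKM in the 4 Saline libraries (1, 2, 9 and 24). HDL 11 was the highest of all libraries, Saline 9 and Saline 1 came next, LNA489 7 was the lowest, and the range of every group overlapped that of every other.

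Group means of the summed level were 958 ± 248 FPKM in dual, 971 ± 354 in LNA489, 627 ± 169 in LNA92a, 1021 ± 798 in HDL and 1149 ± 526 FPKM in Saline (SD, n = 4 each). In the order Saline, HDL, LNA489, dual, LNA92a, each step between neighbours was smaller than the SD of either group, except that between dual and LNA92a, whose ranges overlapped. The lower LNA92a mean depended on the scaling. As RPM (reads per M assigned reads) the sums averaged 596 ± 147 in dual, 621 ± 210 in LNA489, 416 ± 98.1 in LNA92a, 633 ± 424 in HDL and 704 ± 300.5 in Saline. The summed reads were also divided by the size factors behind the variance-stabilized values and expressed per M of the mean assigned reads over the 20 libraries. On that scale they averaged 500.7 ± 90.2 in dual, 561 ± 173 in LNA489, 500.1 ± 140.0 in LNA92a, 542 ± 296 in HDL and 632 ± 284 in Saline (SD, n = 4 each). Over all genes tested, LNA92a minus HDL had a median of -0.47 on the log2(FPKM + 0.1) scale. Without HDL 11, the HDL mean was 421 RPM. The 54 genes took between 0.0304% and 0.127% of the assigned reads of a library.

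**Figure D1:**
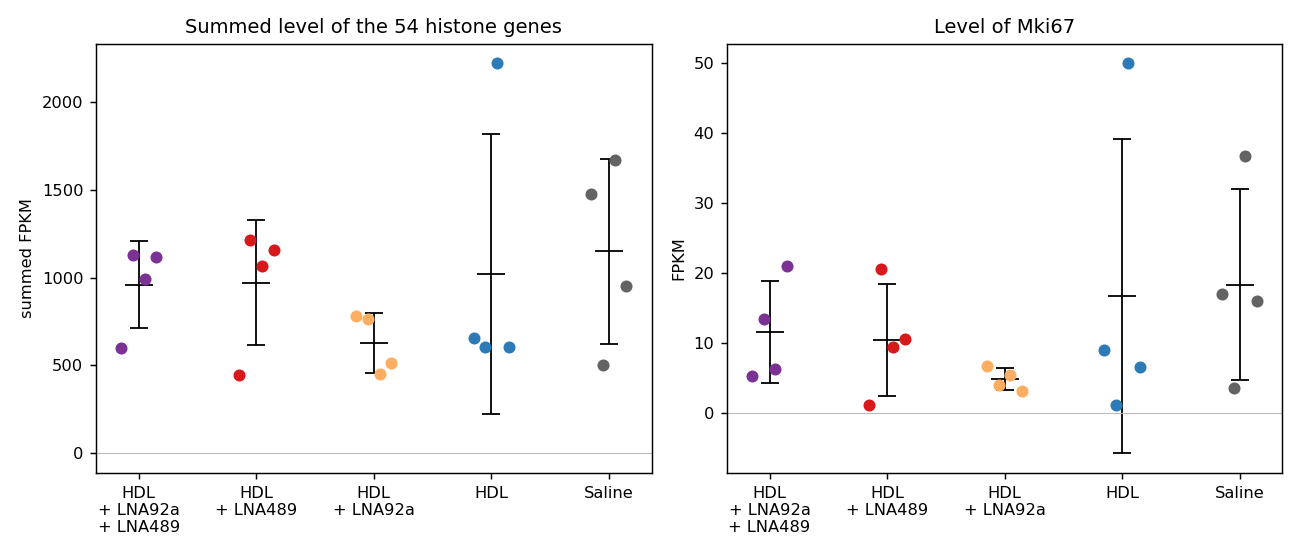
Summed FPKM of the 54 histone genes (left) and FPKM of Mki67 (right) by group, in which each point is 1 mouse and the bar is the mean ± SD of 4 mice; error bars may run below 0. HDL 11, at 2218 and 49.9 FPKM, lies above all other libraries in both panels, and the ranges of the groups overlap.

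Most of the summed level came from a few genes. The 8 with the highest mean FPKM held 59.9% of it. The highest was the H4 gene Hist1h4d (chr13:23581598-23582735, plus strand), with a mean of 175 FPKM over the 20 libraries. It had 134, 197, 269 and 189 FPKM in dual, 110.1, 181, 207 and 187 in LNA489, 143, 189, 92.8 and 118 in LNA92a, 134, 137, 320.0 and 114 in HDL, and 285, 116, 226 and 155 FPKM in Saline. Its highest value was in HDL 11, its lowest in LNA92a 17, and all groups overlapped. Next came Hist1h1e (87.0 FPKM on average), Hist1h2bc (63.5), Hist1h1c (63.2), Hist1h4c (57.7), Hist1h1d (48.7), Hist1h4k (38.9) and Hist1h2bn (31.9). At the other end, Hist1h2bp averaged 0.701 FPKM, and 23 of the 54 genes had no read in at least 1 library. LNA489 7 lacked reads for 20 of the genes and HDL 4 for 11, while 3 libraries had reads for all 54. Over all genes of the FPKM table, LNA489 7 had reads for 17378, the fewest of any library, and HDL 4 for 19736. Both had more assigned reads than the median library. HDL 11 had reads for 23365 genes and Saline 9 for 23212, the most, while Saline 1 had reads for 19532. How far the number of genes detected entered the results below was not tested. HDL 11 held the highest value of 44 of the 54 genes.

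No histone gene differed between treatment groups in the test. Differences were fitted with limma on the variance-stabilized log2 values over all 20 libraries, for the 16848 genes with a mean of at least 0.5 FPKM, which include all 54. A gene counted as called where its p, adjusted by Benjamini and Hochberg's method, was under 0.05. In dual against HDL, LNA489 against HDL, LNA92a against HDL and HDL against Saline, 0 of the 54 genes were called, and the share called among all genes was 0% in each. The same held for dual against LNA92a, dual against LNA489, LNA489 against LNA92a, dual against Saline and the F-test over the 5 groups. At an unadjusted p under 0.05, 0 of the 54 genes passed in each of the first 4 comparisons, in which 416, 638, 595 and 281 of all genes did. Limma's voom on recovered reads also called 0 of the 54 genes in every comparison. At an unadjusted p under 0.05 it gave 0 of them in each of those 4, in which 509, 662, 469 and 296 of all genes passed.

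In dual against HDL, 35 of the 54 genes had a higher and 19 a lower mean, and the median log2 difference was 0.09, beside -0.03 over all genes tested. The smallest p-values were those of 2 H2B genes, Hist1h2be with a log2 difference of -0.36 ± 0.24 (SE) and Hist1h2bc with 0.51 ± 0.36 (SE), both with a limma adjusted p of 0.998. The 4 dual libraries had 53.8, 119, 75.8 and 68.3 FPKM of Hist1h2bc, against 34.4, 66.0, 57.6 and 47.4 FPKM in the 4 HDL libraries. The groups overlapped, with dual 8 inside the HDL range.

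In LNA489 against HDL, 27 genes had a higher and 27 a lower mean, with a median of -0.01, beside -0.05 over all genes tested. The H2A gene Hist3h2a had a log2 difference of -0.52 ± 0.26 (SE) and Hist1h2an, also of the H2A class, 0.59 ± 0.41 (SE), each with a limma adjusted p of 0.920. In LNA92a against HDL, 11 genes had a higher and 43 a lower mean, with a median of -0.15, beside -0.06 over all genes tested. The H3 gene Hist1h3g had a log2 difference of -1.01 ± 0.49 (SE) and the H4 gene Hist1h4n -0.73 ± 0.42 (SE), with a limma adjusted p of 0.867 for each. The 4 LNA92a libraries had 0.202, 0.527, 0.966 and 2.82 FPKM of Hist1h3g, against 5.31, 0.883, 24.2 and 6.43 FPKM in the 4 HDL libraries. HDL 4 lay below the 2 highest LNA92a libraries.

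In HDL against Saline, 14 genes had a higher and 40 a lower mean, with a median of -0.22, beside 0.03 over all genes tested. The H3 gene Hist1h3i had a log2 difference of -0.65 ± 0.46 (SE) and the H2B gene Hist1h2bl -0.90 ± 0.64 (SE), each with a limma adjusted p of 1.00. Dual, LNA489 and LNA92a share the 4 HDL mice as their control, and these medians moved with single libraries. Without HDL 11 the median of the 54 genes was 0.50 in dual against HDL, with 49 genes higher, and 0.30 in LNA489 against HDL, with 47 higher. It was 0.20 in LNA92a against HDL, with 40 higher, and -0.56 in HDL against Saline, with 3 higher. Without HDL 4 the median was -0.11 in dual against HDL, with 20 genes higher, -0.27 in LNA489 against HDL, with 18 higher, -0.42 in LNA92a against HDL, with 10 higher, and -0.08 in HDL against Saline, with 22 higher. Without HDL 23 it was -0.03 in dual against HDL, -0.13 in LNA489 against HDL, -0.28 in LNA92a against HDL and -0.10 in HDL against Saline. In LNA489 against HDL it was 0.32 without LNA489 7, with 41 genes higher, and -0.26 without LNA489 13. In dual against HDL it was 0.25 without dual 8, and in LNA92a against HDL -0.35 without LNA92a 5. In HDL against Saline it was -0.51 without Saline 2, with 8 higher, and -0.13 and -0.12 without Saline 1 and Saline 9. In none of these fits was any of the 54 genes called. The part of B cell RNA, T cell RNA, RNA of other tissues such as adrenal cortex, and depth in these differences was not tested.

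**Figure D2:**
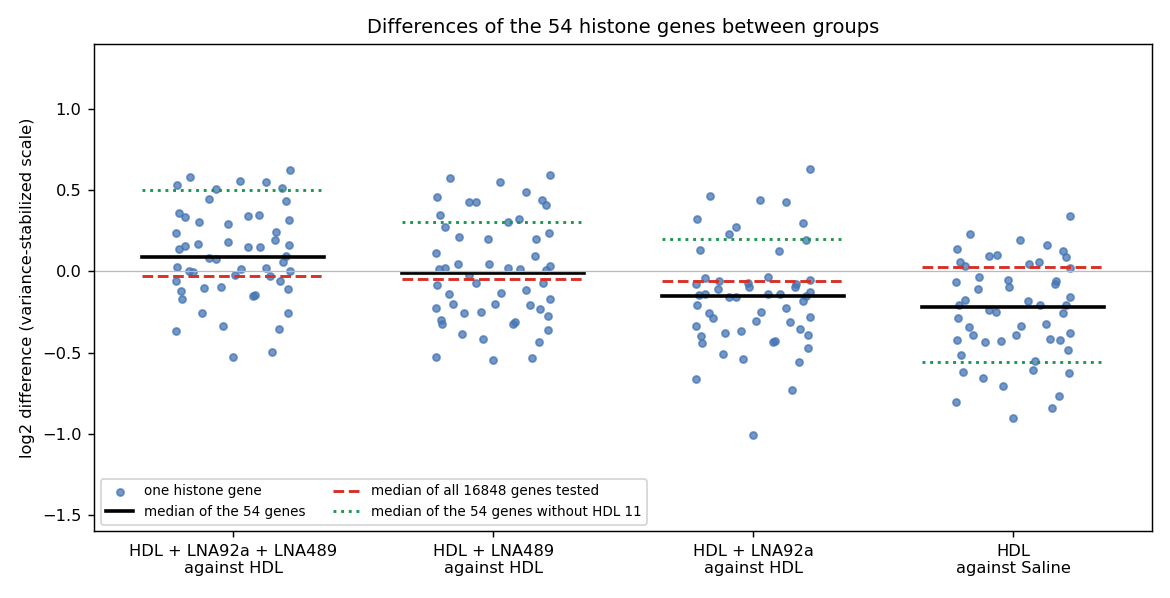
Log2 difference of each of the 54 histone genes on the variance-stabilized scale in the 4 main comparisons, where each point is 1 gene. Black lines mark the median of the 54 genes, red dashed lines that of all 16848 genes tested, and green dotted lines that of the 54 genes without HDL 11, which lies at 0.50, 0.30, 0.20 and -0.56 from left to right.

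Dual against LNA92a gave the most histone genes at an unadjusted p under 0.05, which were 4, all higher in dual, of 415 among all genes. Hist1h4n had a log2 difference of 1.28 ± 0.42 (SE), Hist2h3c2 of 1.10 ± 0.44, Hist1h2bp of 0.82 ± 0.35 and Hist1h2an of 0.88 ± 0.41, with a limma adjusted p of 1.00 for each. The dual libraries had 1.75, 2.94, 8.51 and 4.74 FPKM of Hist1h4n, which were 10, 27, 72 and 33 reads, against 0.200, 0.392, 0 and 0 FPKM in LNA92a, which were 1, 3, 0 and 0 reads. The groups did not overlap for Hist1h4n, Hist2h3c2 and Hist1h3g, which makes 3 of the 54 genes, beside 2.85% of all genes tested. Voom gave 3 of the 54 genes at an unadjusted p under 0.05 in this comparison, of 313 among all genes. The median of the 54 genes was 0.25, beside -0.02 over all genes. In dual against LNA489 the groups did not overlap for 1 gene, the single-gene cluster's Hist4h4, beside 1.34% of all genes. In the other 6 comparisons it was 0 of the 54 genes, beside 1.88% of all genes in dual against HDL, 1.54% in LNA489 against HDL, 2.22% in LNA92a against HDL, 0.973% in HDL against Saline, 1.39% in LNA489 against LNA92a and 0.962% in dual against Saline. In LNA92a, Hist1h4n, Hist2h3c2 and Hist1h3g rest on at most 3, 19 and 14 reads. Hist4h4 had 59, 123, 88 and 114 reads in dual, against 29, 71, 45 and 40 in LNA489. Its groups were apart on the variance-stabilized scale only. On FPKM they overlapped, with dual 15 at 1.56 FPKM below LNA489 13 at 1.62 FPKM. The genes named for separated groups were singled out after their values were seen.

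Across libraries, by contrast, most of the histone genes followed the proliferation markers. Mki67 had 5.40, 13.5, 6.38 and 21.0 FPKM in dual, 1.21, 20.6, 9.51 and 10.6 in LNA489, 6.74, 4.04, 5.44 and 3.20 in LNA92a, 8.98, 1.23, 49.9 and 6.61 in HDL, and 17.1, 3.66, 36.7 and 16.1 FPKM in Saline. HDL 11 and Saline 9 were the highest libraries, LNA489 7 and HDL 4 the lowest, and the groups overlapped. Top2a, at 0.481 FPKM in HDL 4 and 26.3 FPKM in HDL 11 at its extremes, had a Pearson's r of 0.98 and a Spearman's rho of 0.98 with Mki67. Each of the other 16847 genes tested was correlated with Mki67 and with Top2a on the variance-stabilized scale over the 20 libraries, with 100000 permutations of the libraries per gene and p-values adjusted over all those genes for each marker.

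With Mki67, 41 of the 54 histone genes were called, all with a positive r, beside 15.4% of all genes tested. With Top2a, 39 were called, all positive, beside 15.0% of all genes. The median r of the 54 genes with Mki67 was 0.73, beside 0.097 over all genes tested, and ran from -0.04 to 0.95. With Top2a the median was 0.69. On log2(FPKM + 0.1), where every gene of a library shares the division by its assigned reads, 46 were called with Mki67, beside 30.6% of all genes, and 45 with Top2a, beside 30.4%. By Spearman's rho, 34 genes were called with Mki67 and 34 with Top2a, beside 9.12% and 11.4% of all genes. With the group means removed, so that only differences within groups count, 32 were called with Mki67, beside 8.51%, and 28 with Top2a, beside 8.63%. Without LNA489 7 and HDL 4, the 2 libraries farthest from the median of Mki67 and of Top2a, the counts were 33 and 30, beside 9.21% and 9.11%. The relation also held without HDL 11, with 32 and 30 genes called, beside 9.68% and 10.0% of all genes. Without both HDL 11 and Saline 9, a check added after the data were seen, 26 genes were called with Mki67 and 22 with Top2a, beside 4.80% and 5.06% of all genes.

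Hist1h3b, an H3 gene (chr13:23752267-23752886, plus strand), had the highest r with Mki67. Its level was 5.96, 14.3, 12.0 and 11.1 FPKM in dual, 1.24, 23.7, 8.09 and 9.97 in LNA489, 7.64, 4.26, 4.52 and 3.05 in LNA92a, 6.53, 1.01, 29.9 and 7.63 in HDL, and 13.6, 3.50, 29.4 and 13.1 FPKM in Saline. HDL 11 and Saline 9 were again the highest and HDL 4 and LNA489 7 the lowest. The Pearson's r was 0.95 and the Spearman's rho 0.91, with a permutation p of 1e-05, the smallest that 100000 permutations can give, and an adjusted p of 0.000504. With group means removed r was 0.95, without the 2 farthest libraries 0.91 and without HDL 11 it was 0.94.

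The H2B gene Hist1h2bk (chr13:22035870-22036345, plus strand) had 5.86, 13.4, 5.34 and 17.9 FPKM in dual, 0, 11.5, 4.95 and 9.41 in LNA489, 9.23, 1.54, 3.81 and 1.27 in LNA92a, 4.42, 0.924, 26.7 and 4.49 in HDL, and 8.58, 2.28, 24.5 and 9.81 FPKM in Saline. It was listed at 0 in LNA489 7, the library with the lowest Mki67. Its r with Mki67 was 0.94 and its rho 0.91, and r was 0.95 with group means removed, 0.92 without the 2 farthest libraries and 0.93 without HDL 11. The H2B gene Hist1h2bm (r = 0.93, rho = 0.92) and the H3 gene Hist1h3c (r = 0.92, rho = 0.87) completed the 4 highest. For each of these 3 genes the permutation p was 1e-05 and the adjusted p 0.000504. In these 4 genes at least 43.8% of the 50-base windows were shared with another gene.

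Linker histone genes with little or no shared sequence also followed Mki67. Hist1h1b (chr13:21779883-21780625, minus strand) had 9.54, 32.2, 10.5 and 28.0 FPKM in dual, 3.87, 41.4, 29.3 and 44.5 in LNA489, 21.9, 10.7, 13.8 and 12.3 in LNA92a, 10.6, 6.01, 62.9 and 9.65 in HDL, and 51.2, 5.47, 60.0 and 28.9 FPKM in Saline. LNA489 7, Saline 2 and HDL 4 were the lowest and HDL 11 the highest. Its r with Mki67 was 0.87 and its rho 0.88, and r was 0.91 within groups, 0.84 without the 2 farthest libraries and 0.86 without HDL 11. Hist1h1a, likewise free of shared windows, had r = 0.90 and rho = 0.91, and Hist1h1d, with 2.25% of its windows shared, had r = 0.86 and rho = 0.89, each with a permutation p of 1e-05 and an adjusted p of 0.000504. Among the more abundant core histone genes, Hist1h2bn (r = 0.90, rho = 0.94) and Hist1h4k (r = 0.87, rho = 0.81) were called with that same adjusted p. The level of Hist1h4k ran from 0.205 FPKM in LNA489 7 to 150.1 FPKM in HDL 11.

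The remaining 13 genes were not called with Mki67, and they held 53.0% of the summed mean FPKM. Of the 8 genes with the highest level, only Hist1h1d, Hist1h4k and Hist1h2bn were called. Hist1h1c, a linker histone gene (chr13:23738808-23740367, plus strand), had 46.4, 69.6, 69.6 and 59.9 FPKM in dual, 45.6, 74.2, 65.0 and 96.5 in LNA489, 63.6, 62.6, 42.2 and 67.6 in LNA92a, 44.2, 73.2, 71.0 and 48.3 in HDL, and 83.7, 53.8, 77.1 and 50.4 FPKM in Saline. HDL 11, the library with the most Mki67, and HDL 4, with nearly the least, both lay inside this range, with HDL 4 slightly higher. The r with Mki67 was -0.01 and the rho 0.06 (adjusted p = 0.985 by permutation for r).

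Hist1h4c, an H4 gene (chr13:23697635-23698454, minus strand), had 56.2, 51.9, 51.0 and 54.4 FPKM in dual, 60.3, 48.9, 60.9 and 69.4 in LNA489, 77.8, 71.4, 29.4 and 52.5 in LNA92a, 37.5, 67.8, 104 and 26.6 in HDL, and 103, 40.8, 52.7 and 37.7 FPKM in Saline. Its r with Mki67 was -0.03 and its rho -0.04 (adjusted p = 0.927 by permutation for r). LNA489 7, the library with the least Mki67, held more of this mRNA than Saline 9. Hist2h2be, an H2B gene of the Hist2 cluster (chr3:96221119-96223738, plus strand), ran from 1.41 FPKM in LNA92a 5 to 5.99 FPKM in dual 10, with r = -0.04 and rho = -0.09 (adjusted p = 0.912). Hist1h2bc (chr13:23684199-23692908, plus strand) had r = 0.08 and rho = 0.13 (adjusted p = 0.83). A p above the threshold does not show that these genes were unrelated to Mki67.

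Hist1h1e (chr13:23620629-23622558, minus strand) and Hist1h4d, the most abundant members, lay between. Hist1h1e had 48.3, 78.0, 67.4 and 83.1 FPKM in dual, 85.6, 86.6, 61.3 and 151 in LNA489, 95.0, 50.8, 52.6 and 49.5 in LNA92a, 56.4, 114, 186 and 61.8 in HDL, and 168, 55.4, 113 and 74.5 FPKM in Saline. Its r with Mki67 was 0.26 and its rho 0.44 (adjusted p = 0.400), and its exons overlap 2 other genes. Without LNA489 7 and HDL 4, the 2 libraries farthest from the median of Mki67, r was 0.63 and Hist1h1e was called (adjusted p = 0.0423 by permutation), as was Hist2h4. For Hist1h4d r was 0.46 and rho 0.45 (adjusted p = 0.107). The other genes not called were Hist3h2a (r = 0.23), Hist1h2be (0.35), Hist1h4h (0.37), Hist1h4m (0.39), Hist1h2ah (0.42), Hist2h4 (0.48) and Hist1h2af (0.49). On log2(FPKM + 0.1), 5 of the 13 were called, Hist1h2af, Hist1h2be, Hist1h4d, Hist1h4h and Hist2h4. Hist2h3c2, at r = 0.55, was the called gene nearest to the threshold. The difference in r between called and not called genes was not tested, since the call itself made the groups.

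**Figure D3:**
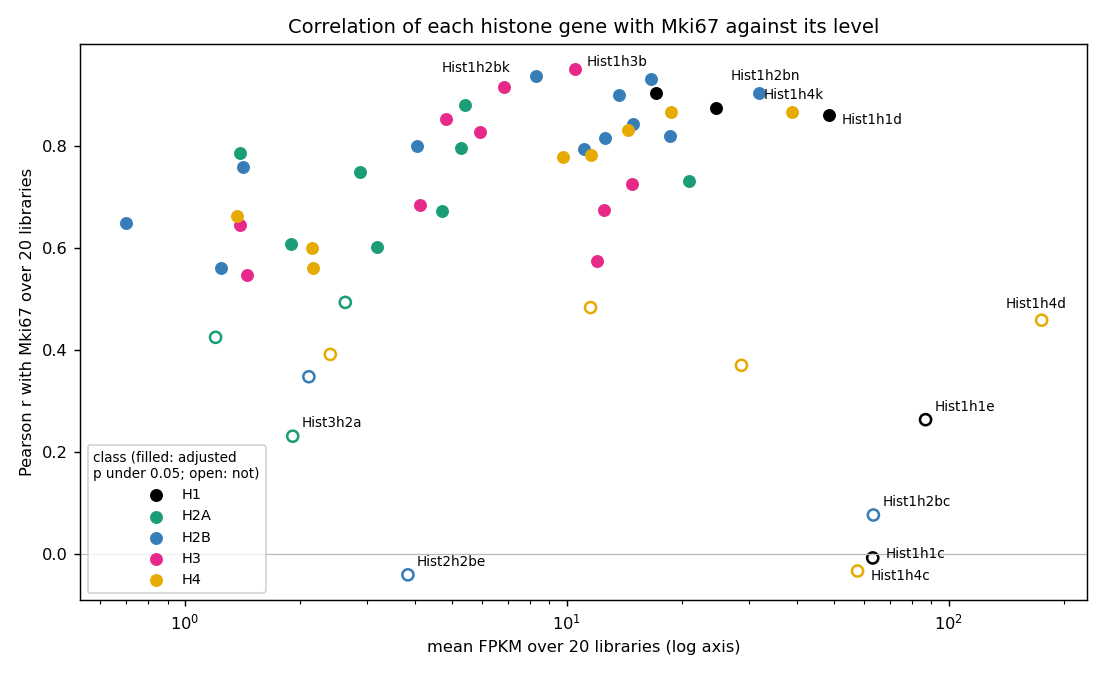
Pearson's r of each of the 54 histone genes with Mki67 over 20 libraries (variance-stabilized scale) against its mean FPKM on a log axis, coloured by class, with filled points for genes called and open points for those not called. The 41 called genes have r of 0.55 or more at low and high levels, while Hist1h4d, Hist1h1e, Hist1h2bc, Hist1h1c and Hist1h4c combine a high level with r of 0.46 or less.

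**Figure D4:**
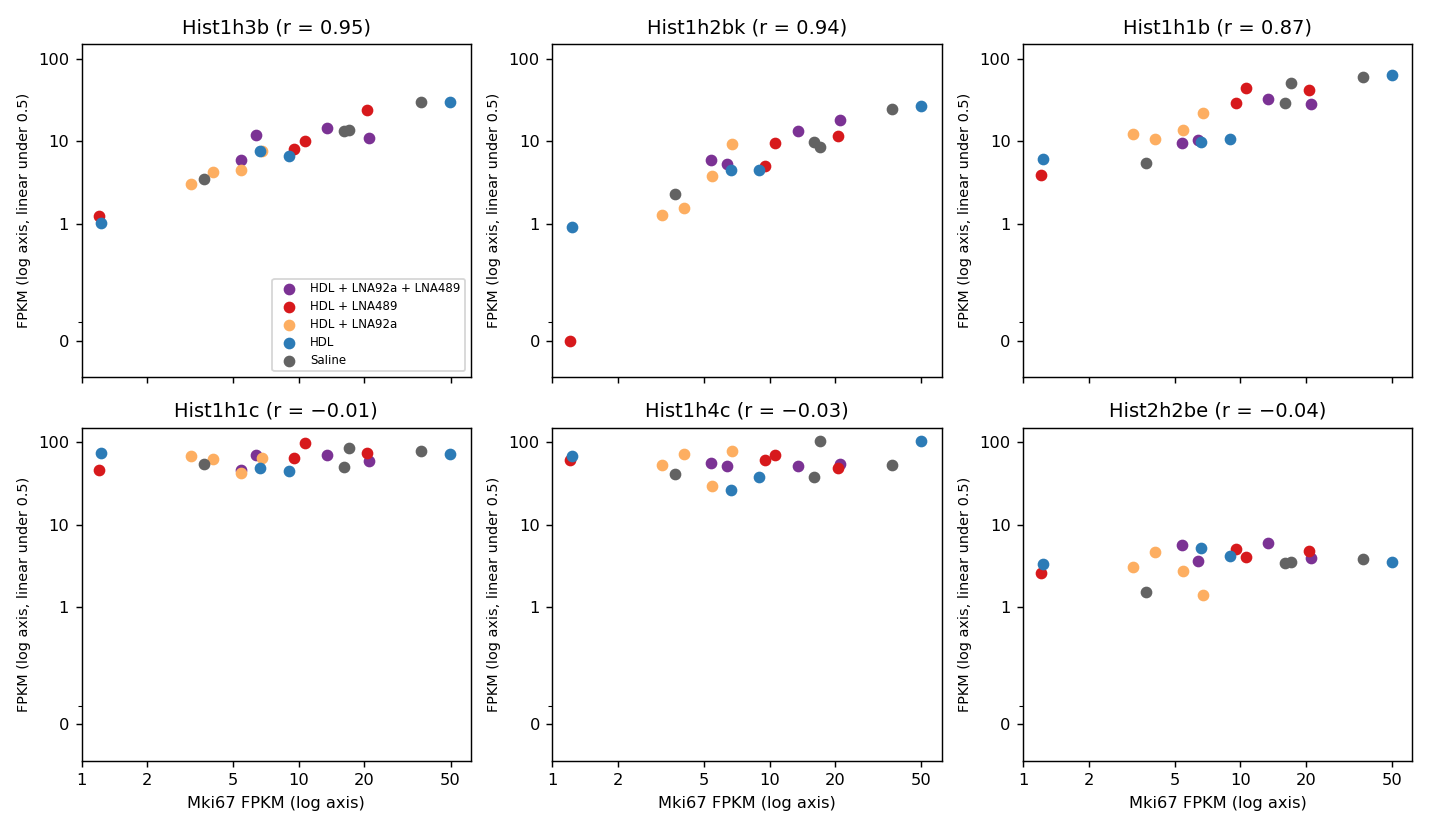
FPKM of 6 histone genes against FPKM of Mki67, 1 point per mouse coloured by group, both on log axes (the vertical axis is linear under 0.5 FPKM); r in the titles is from the variance-stabilized values. Hist1h3b, Hist1h2bk and Hist1h1b climb with Mki67, while Hist1h1c, Hist1h4c (26.6 to 104 FPKM) and Hist2h2be (1.41 to 5.99 FPKM) have r between -0.04 and -0.01.

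Summed over the 41 called genes, the level ran from 79.3 FPKM in LNA489 7 to 1356 FPKM in HDL 11, a 17.1-fold range. Over the 13 genes not called it ran from 282 FPKM in LNA92a 17 to 862 FPKM in HDL 11, a 3.05-fold range. The genes not called made up 38.1% of the summed histone FPKM in Saline 9 and 82.3% in LNA489 7. By group their share averaged 55.5% ± 8.43 in dual, 58.2% ± 16.4 in LNA489, 65.1% ± 4.78 in LNA92a, 57.1% ± 17.9 in HDL and 51.6% ± 15.6 in Saline (SD, n = 4 each). These ranges describe groups of genes that the correlation itself formed.

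**Figure D5:**
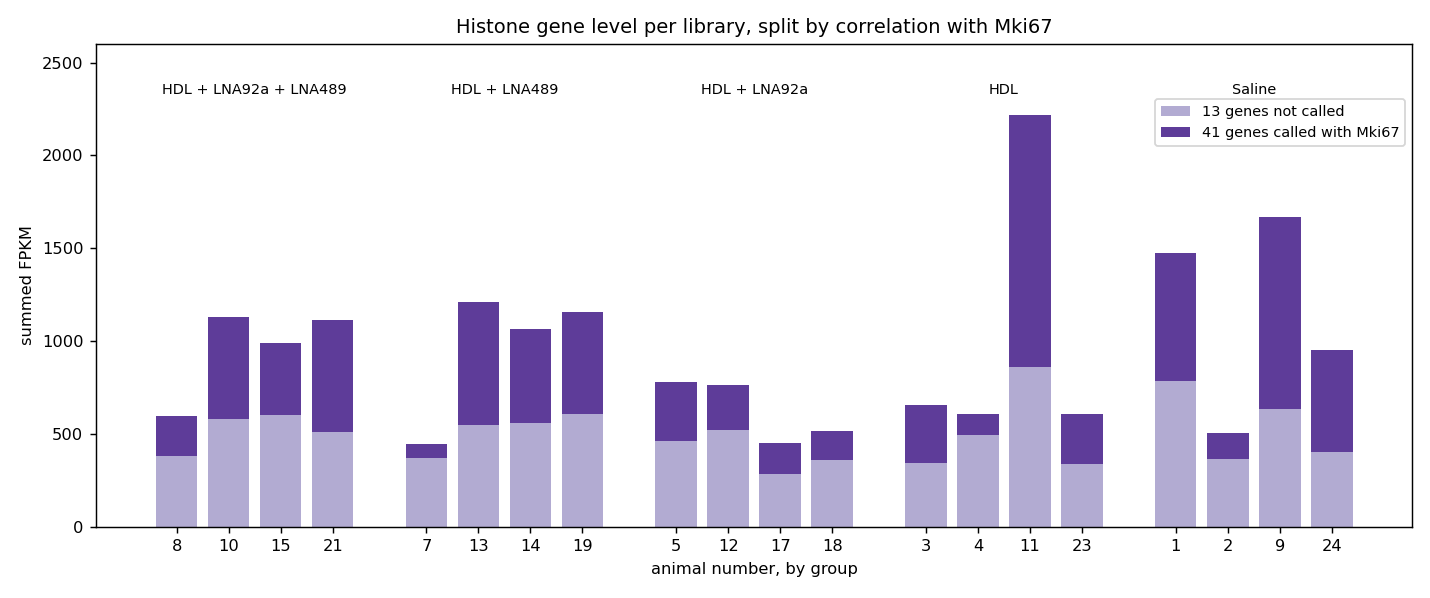
Summed FPKM of the 13 histone genes not called with Mki67 (pale) and of the 41 called (dark, stacked on top) in each of the 20 libraries, by group and animal number. The pale part spans 282 to 862 FPKM and the dark part 79.3 to 1356 FPKM, with the largest dark part in HDL 11 and the smallest in LNA489 7.

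By class, all 10 H3 genes were called with Mki67, 8 of 11 H2A genes, 12 of 15 H2B genes, 8 of 13 H4 genes and 3 of 5 H1 genes, beside the same 15.4% of all genes. The median r was 0.71 for H3, 0.67 for H2A, 0.80 for H2B, 0.60 for H4 and 0.86 for H1. Of the 39 genes with an annotated stem-loop 30 were called, and of the 15 without one 11 were. Since 12 of those 15 have no more than 2 annotated bases after the stop codon, these counts cannot show whether a stem-loop separates the genes. The most frequent core occurred in called genes such as Hist1h3b and Hist1h1d and in genes not called such as Hist1h1c and Hist1h1e, as printed above. The polyadenylation signal AATAAA stood in the last 50 bases of an annotated transcript in 11 of the 54 genes, against 36.5% of all annotated genes. Of these 11, 6 were called, and 35 of the 43 others were. Among the 16 genes with a median of at least 100 reads, 4 carry AATAAA there (Hist1h1c, Hist2h2be, Hist1h2be and Hist2h4) and 0 of them were called, against 7 of the 12 without it. The cut at 100 reads was not set in advance, and the contrast was not tested. By depth, 7 of the 16 genes with a median of at least 100 reads were called, and 34 of the 38 below it. These counts are a description of annotated ends, and which ends were in use in these mice was not measured.

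The histone genes also moved with each other. Over the 1431 pairs of the 54 genes the median r was 0.53. Among the called genes it was 0.65, with all 820 pairs positive, and among the genes not called it was 0.19, with 54 of 78 pairs positive. These correlations share libraries, depth and, for near copies, reads, and they carry no test. Ranked against the mean of the 54 genes on the variance-stabilized scale over the 20 libraries, the 5 genes outside the set with the highest r were Mki67 (0.95), Fignl1 (0.93), Dock8 (0.93), Dnah8 (0.92) and Kcna3 (0.92). Top2a ranked 10, with r = 0.91.

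Slbp, whose protein binds the stem-loop, ran from 1.53 FPKM in LNA92a 18 to 8.23 FPKM in HDL 11. Its r with Mki67 was 0.76 and its rho 0.75 (adjusted p = 0.00226 by permutation), and r was 0.76 within groups and 0.79 without the 2 farthest libraries. Casp8ap2 and Npat, which act at histone gene promoters in the histone locus body, had r of 0.70 (adjusted p = 0.00802) and 0.58 (adjusted p = 0.0333) with Mki67. In the list of histone mRNA processing and transcription genes, 9 of 20 tested were called, all positive, beside 15.4% of all genes, with a median r of 0.45. Of the histone chaperones, which carry histones to DNA, 7 of 22 were called, all positive, with a median of 0.34. Among them Chaf1a, the large subunit of chromatin assembly factor 1, had r = 0.84, and Asf1b, a carrier of H3 and H4, had r = 0.64.

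Histone genes outside the clusters, many of which are expressed throughout the cycle, were counted in the same way. Of 11 tested, 3 were called with a positive r, beside 15.4% of all genes, and H1f0 was called with a negative r, beside 12.7% of all genes. The median was 0.05. H3f3a and H3f3b, which code for the replacement form of H3 used outside S phase, had r of -0.08 (adjusted p = 0.828) and -0.03 (adjusted p = 0.939) with Mki67. H3f3b ran from 41.5 to 87.1 FPKM over the 20 libraries. H1f0, the linker histone of cells that have stopped dividing, ran from 10.4 FPKM in HDL 11 to 34.7 FPKM in LNA92a 12, with r = -0.71 and rho = -0.57 (adjusted p = 0.00691). H2afx, the variant phosphorylated at DNA breaks, had r = 0.86 and rho = 0.90 (adjusted p = 0.000504). H2afz, the H2A variant found at promoters, had r = 0.51 (adjusted p = 0.0654). For scale, 19 of 28 S phase genes and all 19 of the G2 and mitosis genes tested against Mki67 were called with a positive r, again beside 15.4% of all genes. No gene of these 5 lists was called in the 4 main group comparisons.

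Some markers of lymphocytes moved with the same libraries. All 6 of the T and NK cell markers were called with Mki67 with a positive r, from 0.68 to 0.95, and 4 of 6 B cell markers were, beside 15.4% of all genes. All 6 B cell markers were highest in HDL 11, and their calls without it are not given. Of the germinal centre B cell markers, 2 of 4 tested were called with a positive r, again beside 15.4%. Of the 4 plasma cell markers, 0 were called with a positive r and 1 with a negative r. The summed level of the 6 T and NK cell markers was 43.5, 66.9, 29.2 and 136 FPKM in dual, 14.4, 113, 49.8 and 81.2 in LNA489, 57.2, 14.7, 17.7 and 22.7 in LNA92a, 70.4, 4.95, 180.1 and 65.4 in HDL, and 114, 22.4, 169 and 72.4 FPKM in Saline. Its 2 highest libraries, HDL 11 and Saline 9, were also the highest for Mki67 and the called histone genes, and its 2 lowest, HDL 4 and LNA489 7, the lowest. Of the 8 endothelial markers 0 were called with a positive r and 1 with a negative r. All 5 adipocyte markers and 4 of 5 fibroblast markers were called with a negative r, beside 12.7% of all genes. No defining marker of these lists was at 0 in every library. The part of lymphocyte RNA, or of RNA from other tissues, in the relation between histone genes and Mki67 was not tested.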

How the data were processed

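Total RNA from aortic endothelium of 20 mice was sequenced, from 5 groups of 4, with a Nugen Ovation kit per the labels' protocols. One deposited table holds the authors' variance-stabilized counts on a log2 scale (20442 genes) and the other FPKM with gene lengths (32081 genes). The submitters' processing notes name build GRCm38.p5 and, with no role for each, DESeq2 1.18.1, featureCounts 1.15.29, FastQC, STAR 2.5.3a and cutadapt 1.16. Not given in the sources used here were the annotation release, the strand setting and how reads matching several genes were handled.

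Whole reads were recovered from the deposited FPKM values, the gene length and 1 step per library, and all values checked (100%) came within 0.1 of whole numbers. Fitting size factors (0.543 to 1.82) and the constants of a stabilizing formula matched 99.996% of the deposited log2 values to within 1e-04, with differences of at most 0.0111. There, 10 and 20 normalized reads lie 0.40 apart and 100 and 200 lie 0.81 apart, so differences at low counts are compressed. The group comparisons and correlations were also run on log2 FPKM at 2 pseudocounts, 0.1 and 1.

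Limma 3.58.1 (R 4.3.3) fitted the group differences (5 group means, mean trend, 15 residual degrees of freedom, 2-sided). Genes needed a mean of at least 0.5 FPKM and counted as called at an adjusted p under 0.05 (Benjamini-Hochberg). A count test had been foreseen only for raw counts, which the deposited tables are not, and voom on the recovered reads was the alternative. Correlations were tested with 100000 permutations in Python 3.11.15 with numpy 2.4.6 and scipy 1.17.1. The fit and the correlation were tested on simulated data. Those data lacked the differences in tissue content between libraries seen here, so they do not measure power or false calls in these mice. No paired test was made, since animal numbers differ between groups.

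Of the 54 genes, 52 matched GENCODE M21 by identifier, 36 of them with the same version, and 2 by symbol. Named genes were the 14 with the highest mean FPKM, the 2 with the smallest p in each of the 4 main comparisons, the 4 highest and 4 lowest in r with Mki67, any called between groups, and 10 comparison genes. Other genes are named as exceptions, after their values were seen. The members, gene lists and marker lists were chosen with earlier results of these data known. Single p-values measure spread between mice.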

Additional observations from a re-analysis of the deposited data

Results flagged for a closer look

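Within groups of 4 mice, the highest or lowest value of 32 quantities was set against its nearest neighbour by Dixon's criterion at the 95% level. Of 160 group tests 17 exceeded it. The quantities overlap, since the sums contain the named genes and many of these genes move together. The 17 are therefore not independent, and their number cannot be set against a chance rate of 1 in 20. HDL 11 accounted for 9 of the 17. Its summed histone reads were 1269 RPM, against 437 RPM in the nearest HDL library, and its summed level was 2218 FPKM, against 658 FPKM. Mki67 was at 49.9 FPKM there, against 8.98 FPKM in the nearest HDL library. Among single genes, HDL 11 had 320.0 FPKM of Hist1h4d, against 137 FPKM, 67.0 FPKM of Hist1h4h, against 18.9 FPKM, and 62.9 FPKM of Hist1h1b, against 10.6 FPKM. It also had 59.8 FPKM of Hist1h2bg, against 11.5 FPKM, 26.7 FPKM of Hist1h2bk, against 4.49 FPKM, and 11.2 FPKM of Hist1h4n, against 1.42 FPKM. The same library held the highest B cell and the highest T and NK cell marker sums of the 20, and their part in these values was not tested.

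The other 8 exceptions were spread over 6 libraries of the other 4 groups. LNA92a 5 was high within its group for Hist1h1e, at 95.0 FPKM against 52.6 FPKM, and for Hist1h3c, at 5.99 FPKM against 1.76 FPKM. LNA92a 17 was high for Hist1h2an, at 0.630 FPKM while the others were listed at 0, and low for Hist1h2be, at 1.02 FPKM against 1.74 FPKM. LNA489 7 was low for Hist1h2bn, at 3.18 FPKM against 36.3 FPKM. Dual 8 was low for Hist1h2ak, at 2.69 FPKM against 34.7 FPKM, and dual 21 was high for Hist1h2be, at 2.501 FPKM against 1.67 FPKM. Saline 2 was low for Hist2h2be, at 1.55 FPKM against 3.47 FPKM.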

How the results depend on the processing

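No paired analysis was possible because no animal number occurs in more than 1 group. The count of histone genes called between groups stayed at 0 in all 8 comparisons and the F-test under both FPKM pseudocounts, no filter, voom, array weights and each mouse left out, and in the 8 comparisons also in fits of the 2 groups alone. Leaving out 1 mouse at a time gave 32 to 41 genes called with Mki67 and 30 to 39 with Top2a. Of all 16847 genes, 1631 to 2947 were called with a positive r with Mki67 in those fits, and 1687 to 2829 with Top2a. Without HDL 11 and Saline 9, chosen after seeing the data, the counts were 26 and 22, beside 4.80% and 5.06% of all genes. Both were more than 1.5 times below the counts over all libraries, and the cause was not tested beyond the loss of 2 libraries. On log2(FPKM + 0.1), 46 genes were called with Mki67, beside 30.6% of all genes, and 45 with Top2a, beside 30.4%. Over 27 alternative settings, 25 genes were called with Mki67 in every one, and 6 in none (Hist1h1c, Hist1h2bc, Hist1h4c, Hist1h4m, Hist2h2be and Hist3h2a). How many of all genes tested were called in every setting was not counted.

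The sign of r with Mki67 turned for the genes near 0. On log2(FPKM + 0.1) and log2(FPKM + 1), r was 0.36 and 0.37 for Hist1h1c, 0.16 and 0.19 for Hist1h4c, and 0.31 and 0.30 for Hist2h2be. With group means removed it was 0.062 for Hist1h1c, 0.038 for Hist1h4c and 0.066 for Hist2h2be. Without the 2 farthest libraries it was 0.082 for Hist1h1c and 0.19 for Hist1h4c. Hist1h1c also had a rho of 0.062, and without HDL 11 and Saline 9 r was 0.0096 for Hist1h1c and 0.11 for Hist2h2be. With each mouse left out, r ran from -0.10 to 0.14 for Hist1h1c, -0.17 to 0.073 for Hist1h4c, -0.20 to 0.043 for Hist2h2be and -0.0071 to 0.18 for Hist1h2bc. None of these passed the threshold, and the cause was not tested. Low read counts limit the weaker genes, of which 23 had a library with no read.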

Other observations

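Among the 9 histone genes listed with FPKM values alone, Hist1h2ad had the most reads, 112 over 9 of the 20 libraries, with at most 3.85 FPKM. Hist2h2ab had 50 reads in 5 libraries and Hist1h2ao had 49 reads in 10. Hist1h1t, the linker histone gene of the testis, had 9 reads in 4 libraries. The 5 others had between 1 and 8 reads each.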
